A study of Rattus norvegicus with 10 samples.

Results

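Respiratory complex I, the NADH dehydrogenase of the mitochondrial inner membrane, was followed in gastrocnemius muscle, a mixed-fibre muscle of the calf, through every gene symbol in the authors' deposited table that begins with Nduf. These were 41 of 19091 distinct symbols, measured by 48 of 43686 probe sets, and each gene was read from its brightest probe set. They comprised 7 core subunits, 30 accessory subunits and 4 assembly factors. The lateral gastrocnemius of the left leg came from male Sprague-Dawley rats, 5 of them aged and 5 young, with 1 array per animal. The aged rats were labelled 24 months and were 28 months old at necropsy. The young controls were labelled 6 months and were 7 months old at necropsy. No treatment or genetic change was given for either group, and the series presents the aged rat as its model for sarcopenia, in which muscle wastes and weakens in old age. Values are intensities on a linear scale that the authors had normalized between arrays, and tests were run on log2 intensity with limma, whose p-values were adjusted over all 43686 probe sets and called under 0.05. All 12 measured muscle fibre markers, among them Acta1, Ckm and Myh4, lay above the median intensity of the arrays (13.8). All 7 macrophage markers did too, so that alone does not identify muscle. The summed intensity was at least 165109 for the fibre markers in every animal, and at most 1881 for the macrophage markers.

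Complex I takes electrons from NADH, passes them along a chain of iron-sulphur clusters to ubiquinone and pumps protons across the inner membrane. Its peripheral arm holds an N module, which oxidizes NADH, and a Q module, which reduces ubiquinone, and its membrane arm holds a proximal and a distal part that pump. The core subunits carry the chemistry and are conserved from bacteria, the accessory subunits surround them, and the assembly factors help to build the complex and leave it. The core subunits of the membrane arm are encoded in mitochondrial DNA, and 0 of 7 such genes were matched among the deposited symbols, so they were not analysed here. In muscle, complex I supplies the proton gradient behind oxidative ATP production.

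Transcripts of many complex I genes were lower in aged muscle, with the largest median difference among the core subunits. The log2 fold change was negative for 40 of 41 genes, with a median of -0.32, a 1.25-fold lower level, against a median of -0.01 over all symbols. Of the 41 genes 20 fell, 0 rose and 21 did not pass, whereas of all symbols 8.69% fell and 13.8% rose. The 5 aged animals all lay below the 5 young animals in 15 of the 41 genes, against 6.67% of all symbols. Of the 7 core subunits 6 fell (median log2 fold change -0.53), of the 30 accessory subunits 14 fell (median -0.30), and of the 4 assembly factors 0 fell in limma's fit (median -0.22), 2 of which, Ndufaf1 and Ndufaf3, had an unadjusted p under 0.05. Against the 0 genes that rose, 1 lay higher at an unadjusted p under 0.05, Ndufs4. No test of the difference between these classes was made. Falls were small: 2 of the 20, those of Ndufs1 and Ndufa8, reached 1.5-fold, as did falls in 2.58% of all symbols. In this bulk tissue, fewer cells of a type and less RNA per cell cannot be told apart.

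**Figure D1:**
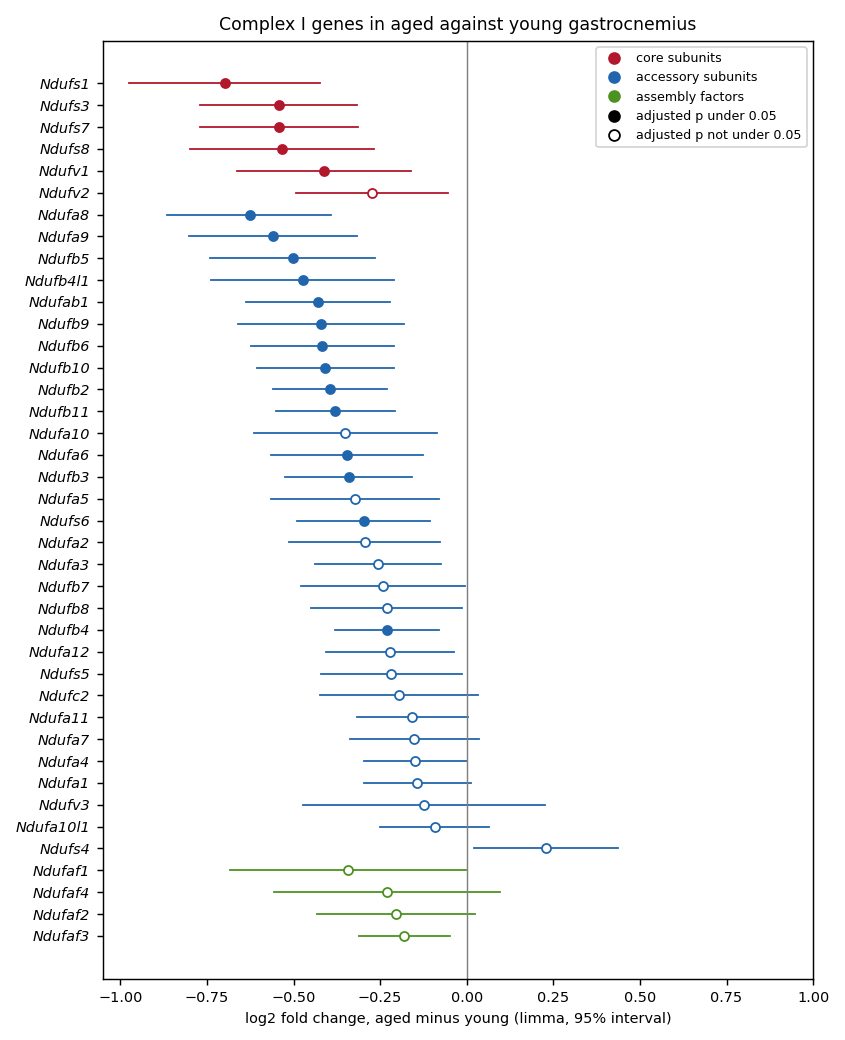
The log2 fold change of 40 of the 41 genes (aged minus young, dot, with limma's 95% interval as a bar), grouped by colour into core subunits, accessory subunits and assembly factors, with filled dots for an adjusted p under 0.05. All dots but that of Ndufs4 lie left of 0, and the core dots shown are filled except that of Ndufv2.

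The aged animals differed among themselves. Aged replicate 1 lay below every young animal in 16 of 41 genes, and the other aged animals in 33 to 39. The median shift from the young mean over the 41 genes was -0.04 on the log2 scale in aged replicate 1, against -0.52, -0.29, -0.47 and -0.27 in aged replicates 2 to 5. Aged replicate 1 had the highest value of the aged animals in 38 of 41 genes, and aged replicate 2 the lowest in 27. The SD of log2 intensity was larger in the aged than in the young animals for 37 of 41 genes, with medians of 0.224 and 0.065, and for 35 genes when aged replicate 1 was left out. These counts for single animals and for the SD were not taken over all symbols, so they are not shown to be particular to complex I genes. Since aged replicate 1 was the highest of the aged animals in 38 genes, leaving it out makes most falls larger in any case. Without aged replicate 1, 28 genes fell and 0 rose, and 10.4% of all symbols fell. The core count was then 7 of 7, the accessory count 21 of 30 and the assembly count 0 of 4. Without the 2 arrays whose columns are named as replacements, which by their values are aged replicates 4 and 5, 10 genes fell, 3 of them core subunits and 7 accessory, and 5.53% of all symbols fell.

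**Figure D2:**
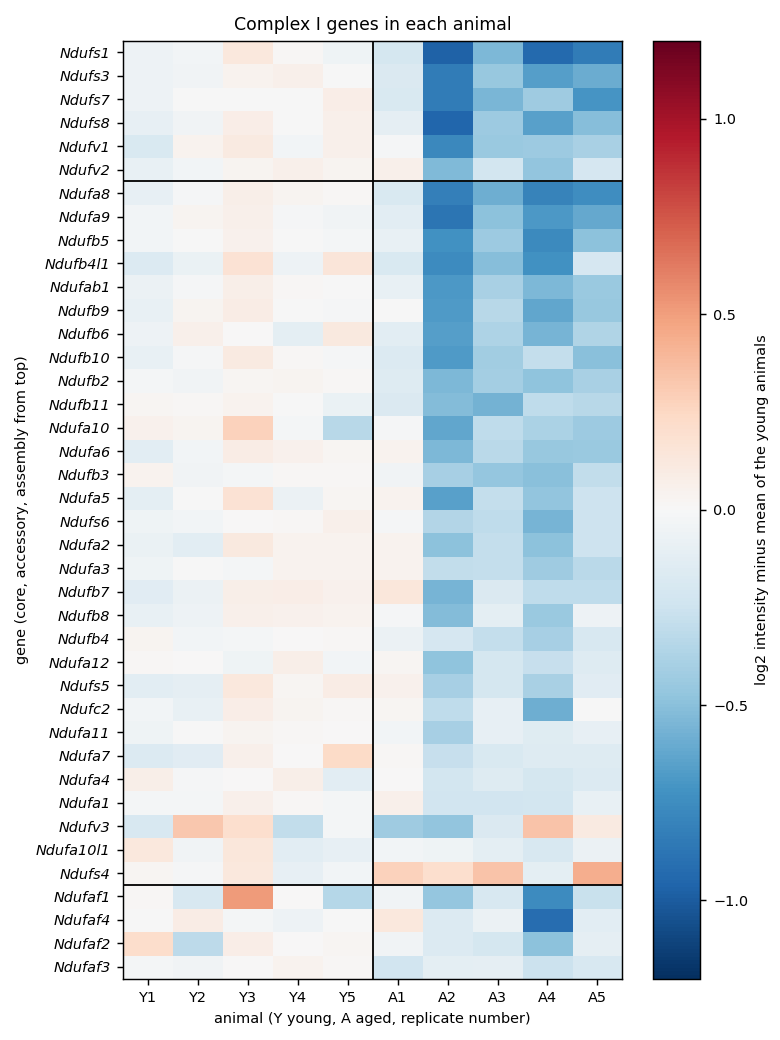
Log2 intensity of the same 40 genes (rows, ordered as in the plot of fold changes) in each animal (columns, young Y1 to Y5 and aged A1 to A5) minus the mean of the young animals, in blue where lower and red where higher. Columns A2 to A5 are blue over most rows, A1 is near the young columns, and the row of Ndufs4 is red in A1, A2, A3 and A5.

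Among the core subunits of the N module, Ndufs1 changed the most. Ndufs1, the subunit with most of the iron-sulphur clusters of this module, read 3343, 3417, 3828, 3533 and 3383 in young replicates 1 to 5 and 3019.8, 1789.7, 2411, 1827 and 1953 in aged replicates 1 to 5. Every aged animal lay below every young one, with aged replicate 1 nearest to them, and the level was 1.62-fold lower (log2 fold change -0.70 ± 0.13 SE, n = 5 per group, limma adjusted p = 0.00259). Ndufv1, which binds NADH and the flavin that accepts its electrons, read 4431, 5195, 5442, 4931 and 5248 in young and 5001, 2955, 3693, 3724 and 3835 in aged animals. Aged replicate 1 lay among the young values and the other 4 aged animals below all of them, a 1.33-fold fall (-0.41 ± 0.12, adjusted p = 0.0295). Ndufv2, which holds a further cluster of the N module, read 6909, 7184, 7553, 7682 and 7525 in young and 7672, 5098, 6328, 5300.3 and 6419.6 in aged animals. Aged replicate 1 was within the young range here too, and the difference did not pass (-0.27 ± 0.10, adjusted p = 0.0938). It passed without that animal (-0.36, adjusted p = 0.0116), in only 1 of 17 alternative settings. Leaving out the highest aged value makes such a fall larger in any case.

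Core subunits of the Q module fell as well. Ndufs7, which carries the last cluster before ubiquinone, read 6998, 7281, 7287, 7277 and 7715 in young and 6450.4, 4081, 4995, 5419.9 and 4472 in aged animals, without overlap, and was 1.46-fold lower (-0.54 ± 0.11, adjusted p = 0.00389). Ndufs8, which carries a pair of clusters ahead of it, read 2845, 2949.8, 3228, 3038 and 3184 in young and 2818, 1574, 2248, 1935 and 2132 in aged animals. The highest aged value, again of replicate 1, lay just under the lowest young one, and the level was 1.45-fold lower (-0.53 ± 0.12, adjusted p = 0.0101). Ndufs3, a structural subunit of the module, read 4149, 4199, 4439.8, 4506 and 4307 in young and 3839.6, 2413, 3149, 2729 and 2867 in aged animals. Its groups did not overlap and it was 1.46-fold lower (-0.54 ± 0.10, adjusted p = 0.00356). By the modules of the complex, 4 of 10 N module genes, 4 of 5 Q module genes, 1 of 7 genes of the proximal and 8 of 10 of the distal membrane arm fell, with medians of -0.28, -0.53, -0.22 and -0.39, and 9 genes were assigned to no module. Of all symbols 8.69% fell. In the proximal arm 1 gene of 7 is 14.3%, so that count is not read as a change of the arm. The counts by module moved with single animals. Without aged replicate 1, 7 N module, 5 Q module, 4 proximal and 9 distal genes fell, and 10.4% of all symbols. Leaving out any other single animal gave 1 N module gene (3 without young replicate 1), 4 Q module genes, 1 proximal gene (2 without young replicate 5) and 6 to 7 distal genes. The modules were not tested against each other.

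Of the accessory subunits that fell, 8 belonged to the distal membrane arm and 1, Ndufa8, to the proximal one. Ndufa8, a small protein on the outer face of the proximal membrane arm, read 2348, 2503, 2639, 2585 and 2543 in young and 2223, 1425, 1676, 1449.6 and 1506 in aged animals, 1.54-fold lower without overlap (-0.63 ± 0.11, adjusted p = 0.00198). Ndufa9, which sits where the peripheral arm meets the membrane, read 2393, 2502, 2565, 2431 and 2382 in young and 2242, 1339.9, 1747, 1518 and 1605 in aged animals, again without overlap, and was 1.47-fold lower (-0.56 ± 0.11, adjusted p = 0.00455). In both genes aged replicate 1 stood closest to the young animals. Ndufb5, a membrane protein of the distal arm, read 5744, 5864, 6088, 5867 and 5791 in young and 5527, 3536, 4352, 3451 and 4162 in aged animals (1.42-fold lower, -0.50 ± 0.11, adjusted p = 0.00779). Ndufb9, which holds an acyl carrier protein on the distal arm, read 6296, 6838, 7125, 6666 and 6628 in young and 6668, 4183, 5318, 4347 and 4887 in aged animals (1.34-fold lower, -0.42 ± 0.11, adjusted p = 0.0209). The groups of Ndufb5 did not overlap, whereas in Ndufb9 aged replicate 1 matched the young animals. Ndufab1 encodes that acyl carrier protein, which also serves mitochondrial fatty acid synthesis, and read 3862, 4013, 4254, 4101 and 4023 in young and 3809, 2517, 3100.0, 2782 and 2965 in aged animals (1.35-fold lower, -0.43 ± 0.10, adjusted p = 0.00858), without overlap.

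The other 9 accessory genes that fell were Ndufb2, Ndufb3, Ndufb4, Ndufb6, Ndufb10 and Ndufb11 of the distal membrane arm, Ndufb4l1, a copy of Ndufb4, and Ndufa6 and Ndufs6, listed with the N module. The symbol Ndufs6 is also a RefSeq synonym of a pseudogene, so its signal is uncertain. Ndufb4l1 read only 18.7, 19.8, 23.6, 20.1 and 23.1 in young and 18.5, 12.4, 14.8, 12.7 and 18.3 in aged animals, close to the median intensity of the arrays. Its 1.39-fold fall (-0.47 ± 0.12, adjusted p = 0.0191) stood beside a 1.17-fold fall of Ndufb4 (-0.23 ± 0.07, adjusted p = 0.0422), and signal of these like copies cannot be told apart without the probe sequences, which were not used here. The calls of Ndufa6, Ndufs6, Ndufb4 and, among the core, Ndufv1 were lost under 11, 12, 12 and 10 of 17 alternative settings, leave-one-out fits included. The 16 accessory genes that did not pass had log2 fold changes between -0.35 (Ndufa10) and 0.23 (Ndufs4). Of these, Ndufa2, Ndufa3 and Ndufa5 had 4 of 5 aged animals below all young ones with adjusted p of 0.068, 0.0574 and 0.0738. The same 4 of 5 held for Ndufa1, Ndufa4, Ndufa11, Ndufa12, Ndufb7 and Ndufs5, with adjusted p from 0.109 to 0.217. Ndufa4, first described as a complex I subunit and now counted with cytochrome c oxidase, was not called either (-0.15 ± 0.07, adjusted p = 0.178).

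Ndufs4 was the gene that lay higher in the aged group. Ndufs4, a small accessory subunit at the joint of the N and Q modules whose loss causes Leigh syndrome in humans, read 2195, 2127, 2347, 2005 and 2107 in young and 2616, 2471, 2731, 1988 and 2917 in aged animals. Aged replicates 1, 2, 3 and 5 lay above every young animal and aged replicate 4 below every one. The difference did not pass over all animals (log2 fold change 0.23 ± 0.10, 95% interval 0.02 to 0.44, adjusted p = 0.138). It passed without aged replicate 4 (0.32, adjusted p = 0.0138), a fit in which 13.7% of all symbols rose, and without both replacement arrays (0.27, adjusted p = 0.0496), where 10.6% rose. Its shift in aged replicate 1 was 0.28, against 0.20, 0.34 and 0.44 in replicates 2, 3 and 5, so that animal did not stand near the young ones for this gene. The next members in order were Ndufa10l1 and Ndufv3. Ndufv3, a small N module subunit, read 162, 233, 213, 151 and 183 in young and 138, 134, 165, 236 and 201 in aged animals. Its groups overlapped, with aged animals both below and above the young range (-0.12 ± 0.16, adjusted p = 0.676). Ndufa10l1 had intensities between 5.64 and 7.07 in all 10 animals, below the median of the arrays and without a detection measure, and Ndufa10 is a RefSeq synonym of it (-0.09 ± 0.07, adjusted p = 0.448).

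**Figure D3:**
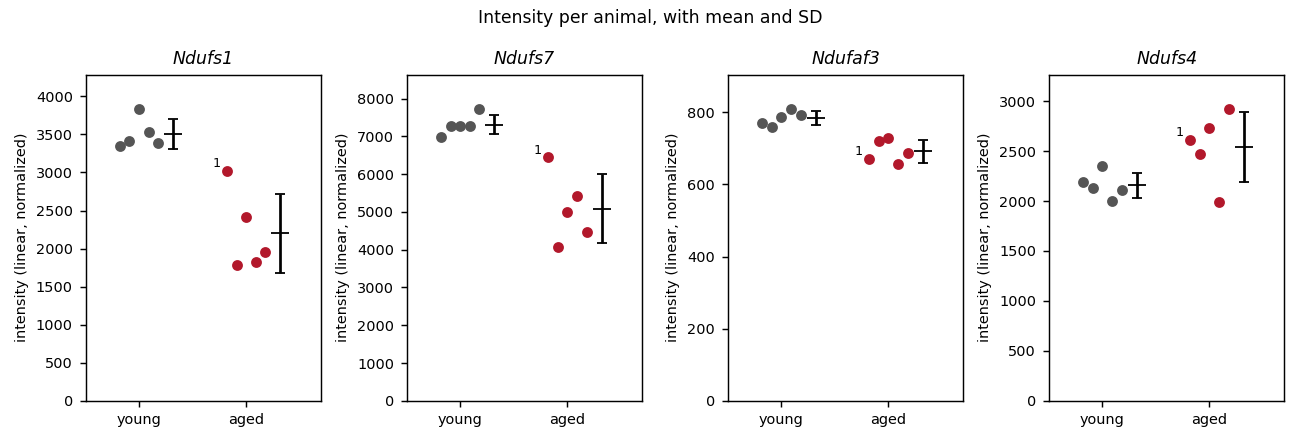
Intensity (linear scale from 0) of Ndufs1, Ndufs7, Ndufaf3 and Ndufs4 in each of 5 young and 5 aged animals, in replicate order from the left, with aged replicate 1 marked 1 and the mean and SD of each group beside the dots. The groups do not overlap in the first 3 genes, and in Ndufs4 all aged animals but replicate 4 lie above the young ones.

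The 4 Nduf assembly factors had log2 fold changes between -0.34 and -0.18, none past the threshold. Ndufaf3, which binds the early Q module, read 771, 760.2, 788, 808 and 792 in young and 671, 721, 729, 656 and 687 in aged animals. The groups did not overlap, the log2 fold change was -0.18 ± 0.06 and the adjusted p 0.0641, and the gene passed with quantile normalization (adjusted p = 0.00604) and when dim probe sets were left out (adjusted p = 0.0483). Ndufaf4, the partner of Ndufaf3, read 408, 436, 402, 393 and 409 in young and 447, 366, 390.3, 217 and 374 in aged animals (-0.23 ± 0.15, adjusted p = 0.359), with aged replicate 4 far below the rest. Ndufaf1, which helps to build the membrane arm, read 190.2, 165, 269, 189 and 149 in young and 183, 136, 165, 112 and 157 in aged animals (-0.34 ± 0.16, adjusted p = 0.176). Its groups overlapped, as did those of Ndufaf2, a relative of Ndufa12 that acts late in assembly, which read 301, 210.1, 276, 261 and 266 in young and 254, 232, 225, 186 and 242 in aged animals (-0.20 ± 0.11, adjusted p = 0.233). Ndufaf5, Ndufaf6 and Ndufaf7 were deposited under older symbols, found through RefSeq synonyms after the values had been seen, and did not pass either (-0.04, -0.16 and -0.13, adjusted p = 0.878, 0.343 and 0.509). Of 8 measured assembly factors whose names do not begin with Nduf, 3 fell, 0 rose and 5 did not pass. Of all symbols 8.69% fell and 13.8% rose. Foxred1 was 1.54-fold lower (-0.62 ± 0.11, adjusted p = 0.00217), Atp5sl, now named Dmac2 and needed for the distal membrane arm, 1.47-fold lower (-0.56 ± 0.12, adjusted p = 0.00642), and Ecsit, which works with Ndufaf1, 1.46-fold lower (-0.55 ± 0.11, adjusted p = 0.00425).

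Start regions of the genes were read to see what the members share beside their change. RefSeq windows on the GRCr8 build, from 250 bases before to 50 after the annotated start, were matched by symbol for 37 of the 41 genes. Motifs were searched on both strands: GCGCATGC for NRF1 and CCGGAAG for ETS factors such as GABP, known activators of respiratory genes, TCAAGGTCA for estrogen-related receptors, and AAGATGGC for YY1. NRF1 letters were in 3 of 37 windows (8.11%, against 3.11% of 21851 windows of protein-coding genes), ETS letters in 7 (18.9% against 10.7%), estrogen-related receptor letters in 0 (against 0.366%) and YY1 letters in 8 (21.6% against 3.67%). The NRF1 letters can match on both strands at overlapping places. These shares are a description with no test, and a match is not shown to be a bound site. The median content of G and C was 55.6% for the members, against 51.2% for 33469 windows of all genes. The shares were not adjusted for it. The YY1 letters also form the core of TISU, an element around the start codon of genes with very short leaders.

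The YY1 match kept to the same strand and the same short region. In all 8 windows it lay on the gene's strand within the 50 bases after the start, beginning between base 5 and base 27, as in 21.6% of the members' windows and 1.49% of those of protein-coding genes. Of these 8 genes 4 fell (Ndufa6, Ndufa9, Ndufs6 and Ndufs7), and Ndufs4 was among the other 4. Of all 41 members 20 fell (48.8%), so 4 of 8 is near the share of the members. The match with 8 bases on each side is shown for each of the 8, from 5′ to 3′ on the gene's strand, with the motif in capitals.
Ndufa2 (chr18:28631843-28631866, minus strand): tgctagcaAAGATGGCggccgcaa
Ndufa3 (chr1:74515527-74515550, minus strand): ccaagaccAAGATGGCtgctagta
Ndufa6 (chr7:115750287-115750310, minus strand): tccttagcAAGATGGCggccgcgg
Ndufa9 (chr4:161374145-161374168, minus strand): tgtgggagAAGATGGCggccgccg
Ndufb8 (chr1:253362900-253362923, minus strand): agaaggtgAAGATGGCggcgtccc
Ndufs4 (chr2:47794895-47794918, minus strand): cccacaggAAGATGGCggcggtct
Ndufs6 (chr1:31797415-31797438, plus strand): tcgtcggcAAGATGGCggcggcgc
Ndufs7 (chr7:10110479-10110502, minus strand): ccgaggccAAGATGGCggcgctgg

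The 4 regions before the start that follow carry NRF1 or ETS letters and belong to 2 core subunits (Ndufs1 and Ndufs8), to Ndufa6, the one member with NRF1, ETS and YY1 letters, and to Ndufa11, whose NRF1 letters repeat in tandem. Each is the 250 bases up to the annotated start, 5′ to 3′ on the gene's strand, from RefSeq's GRCr8, with matches in capitals. Ndufa11 did not pass (-0.16 ± 0.07, adjusted p = 0.192), the other 3 fell. These 4 are a selection and do not give the share of such genes that fell. Of all members with NRF1 letters 1 of 3 fell, and of those with ETS letters 3 of 7, against 20 of the 41 genes.
Ndufs1 (chr9:72073606-72073855, minus strand): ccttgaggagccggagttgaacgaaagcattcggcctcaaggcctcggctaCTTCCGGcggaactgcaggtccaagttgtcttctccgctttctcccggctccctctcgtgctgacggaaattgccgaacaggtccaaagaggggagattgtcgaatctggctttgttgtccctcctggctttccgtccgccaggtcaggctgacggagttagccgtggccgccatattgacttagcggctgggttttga
Ndufs8 (chr1:210573699-210573948, minus strand): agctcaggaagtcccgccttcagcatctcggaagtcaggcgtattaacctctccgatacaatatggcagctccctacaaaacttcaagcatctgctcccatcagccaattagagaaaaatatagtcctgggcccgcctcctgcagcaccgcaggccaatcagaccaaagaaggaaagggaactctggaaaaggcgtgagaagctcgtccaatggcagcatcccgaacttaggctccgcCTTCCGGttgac
Ndufa6 (chr7:115750318-115750567, minus strand): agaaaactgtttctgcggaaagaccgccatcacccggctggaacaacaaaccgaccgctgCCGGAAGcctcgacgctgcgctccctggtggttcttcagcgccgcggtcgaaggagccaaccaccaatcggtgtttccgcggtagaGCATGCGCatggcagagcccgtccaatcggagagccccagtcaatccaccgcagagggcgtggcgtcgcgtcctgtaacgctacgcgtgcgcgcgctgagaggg
Ndufa11 (chr9:1637364-1637613, plus strand): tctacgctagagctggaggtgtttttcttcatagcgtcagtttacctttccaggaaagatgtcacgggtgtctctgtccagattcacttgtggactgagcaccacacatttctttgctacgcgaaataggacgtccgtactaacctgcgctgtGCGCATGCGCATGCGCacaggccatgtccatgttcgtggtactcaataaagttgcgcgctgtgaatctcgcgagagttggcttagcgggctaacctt

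Several members share their start region with a gene on the opposite strand, and some of these neighbours moved the other way. Windows of 12 members overlapped that of another gene on the other strand, a comparison chosen after the values had been seen, and 7 of the neighbours were measured. Of these 7, 5 rose, 0 fell and 2 did not pass, while 13.8% of all symbols rose. In 2 pairs the member fell and the neighbour rose. Eef1b2, a subunit of the translation elongation factor complex and the neighbour of Ndufs1, read 1761, 1774, 1868, 1706 and 1759.8 in young and 2493, 3242, 2795, 2308 and 3241 in aged animals, a 1.57-fold rise without overlap (0.65 ± 0.10, adjusted p = 0.000675). Aged replicate 1 was well above the young animals for Eef1b2 and just below them for Ndufs1. Rbm10, a splicing regulator beside Ndufb11, rose 1.29-fold (0.37 ± 0.10, adjusted p = 0.0292). Ik, Rnf113a1 and Ercc8 rose 1.36-fold, 1.46-fold and 1.38-fold (adjusted p = 0.00537, 0.0112 and 0.0321) beside Ndufa2, Ndufa1 and Ndufaf2, which did not pass. Mrpl47, a mitochondrial ribosomal protein gene beside Ndufb5, had a log2 fold change of -0.48 ± 0.17 against -0.50 for Ndufb5 but did not pass (adjusted p = 0.0835), and Kbtbd4 beside Ndufs3 was near 0 (-0.01 ± 0.08, adjusted p = 0.947).

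**Figure D4:**
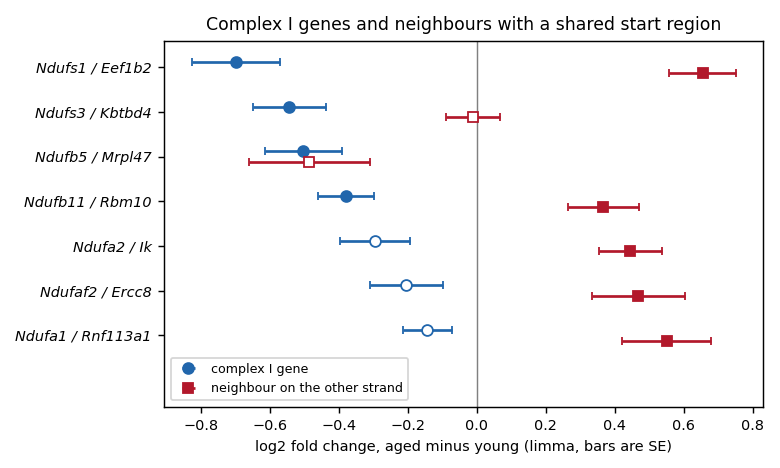
Log2 fold change (aged minus young, bars are limma's SE) of 7 complex I genes (circles) and of the measured neighbour whose start region overlaps on the other strand (squares), with filled symbols for an adjusted p under 0.05. In 5 pairs the neighbour lies right of 0 and the complex I gene left of it.

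The rest of the respiratory chain also held genes that fell. Beside the counts that follow, 8.69% of all symbols fell and 13.8% rose. Of 4 measured genes of complex II 3 fell, of 6 of complex III 4, of 9 of the muscle set of complex IV 4 and of 15 of ATP synthase 8, with 0 rising in each (also 0 at an unadjusted p under 0.05) and median log2 fold changes of -0.43, -0.32, -0.24 and -0.25. Genes that fell among them included Atp5g1, a gene of the membrane ring of ATP synthase (1.40-fold, adjusted p = 0.00962), Sdha, the flavin subunit of complex II (1.38-fold, adjusted p = 0.0026), and Uqcrfs1, the iron-sulphur protein of complex III (1.32-fold, adjusted p = 0.0195). Iron-sulphur cluster assembly, which makes the cofactor of several core subunits, had 7 of 12 genes lower and 0 higher, among them Isca1 (1.46-fold, adjusted p = 0.00142) and Glrx5 (adjusted p = 0.005). Of 15 electron carriers and enzymes that deliver NADH or ubiquinone, 10 fell and 0 rose. Gpd2, the glycerol phosphate dehydrogenase of the inner membrane, fell 2.08-fold (adjusted p = 0.00146), Idh3a, which yields NADH in the citric acid cycle, 1.78-fold (adjusted p = 0.00146), and Cycs, cytochrome c, 1.59-fold (adjusted p = 0.00488). Several of these counts rested on single animals. Leaving out 1 animal gave 0 (without aged replicate 2 or young replicate 4) to 6 (without aged replicate 1) genes lower for complex III. It gave 2 to 5 for complex IV, 2 to 11 for ATP synthase and 2 to 9 for iron-sulphur cluster assembly, each highest without aged replicate 1 and with fewer genes than over all animals in every other such fit. For complex II it gave 3 to 4 and for the carriers and enzymes 9 to 11. No test set complex I apart from these lists.

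Some regulators of mitochondrial gene expression fell as well. Of 13 measured regulators 4 fell (30.8%), 1 rose (7.69%) and 8 did not pass, whereas of all symbols 8.69% fell and 13.8% rose. The share that rose was thus below that of all symbols. Ppargc1a, the coactivator PGC-1alpha, read 111, 189.7, 293, 193 and 201 in young and 89.8, 52.3, 88.0, 72.2 and 65.6 in aged animals, a 2.62-fold fall without overlap (-1.39 ± 0.22, adjusted p = 0.000938). Aged replicate 1, near the young animals in most complex I genes, lay with the other aged animals for Ppargc1a, at a shift of -1.07. Its relative Ppargc1b and the nuclear receptors Esrrb and Esrrg fell (-0.74, -0.33 and -0.37, adjusted p = 0.00419, 0.0144 and 0.0421), and Pprc1, another relative, rose (0.25, adjusted p = 0.0384), a call lost without aged replicate 1 or 2 or without young replicate 1, 2, 3 or 5. Gabpa also rose without aged replicate 4, and 3 to 4 regulators fell whichever animal was left out. The factors whose motifs were searched gave log2 fold changes of -0.06 for Nrf1, 0.40 for Gabpa, 0.12 for Yy1 and -0.15 for Esrra, none past the threshold (adjusted p = 0.637, 0.0605, 0.239 and 0.407).

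**Figure D5:**
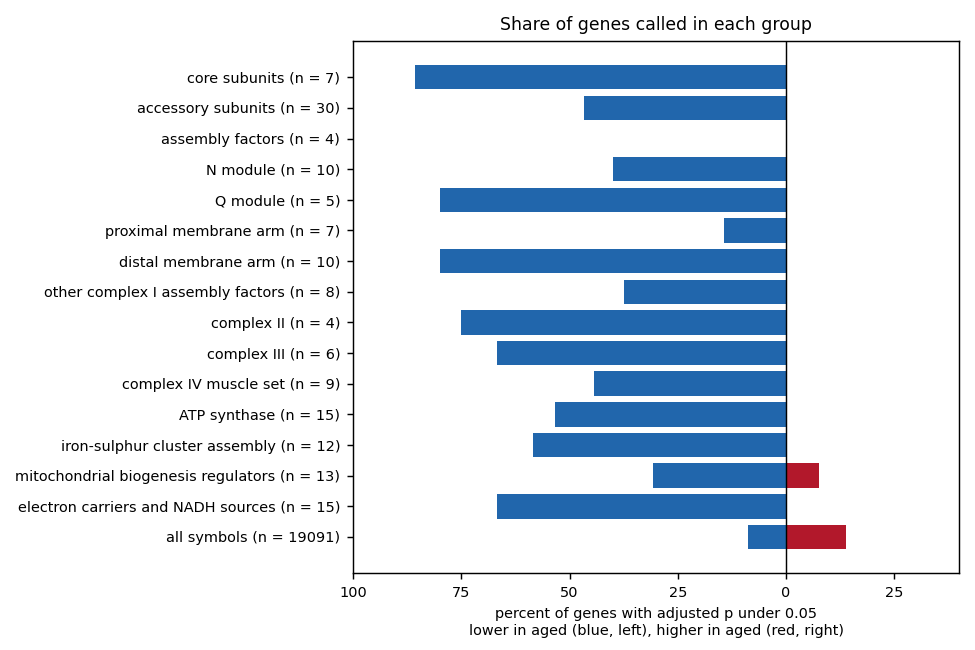
Percent of genes with an adjusted p under 0.05 that were lower (left, blue) or higher (right, red) in aged muscle, for the classes and modules of complex I, for related lists and for all 19091 symbols, with the number of measured genes in brackets. The bar of the core subunits reaches 85.7% on the left, against 8.69% for all symbols.

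Markers of cell types were counted beside all symbols, of which 8.69% fell and 13.8% rose. In a list of 7 markers, 1 called gene is 14.3%, so such a list is not read as a change of its cell type. Of 12 muscle fibre markers 2 fell (Myh1 and Mybpc2), 1 rose (Mb, a call kept without aged replicate 1 or without young replicate 2 or 3 and lost without any other single animal) and 9 did not pass, and their summed intensity ran from 169425 to 173542 in young and from 165109 to 174250 in aged animals, with aged replicate 1 at 165835. Of 7 macrophage markers 4 rose, C1qa, Cd68, Csf1r and Emr1, with summed intensities from 423 to 898 in young and from 1000.3 to 1881 in aged animals, highest in aged replicate 1. Of 7 lymphocyte markers 0 passed in limma's fit, as did 0 at an unadjusted p under 0.05, and Cd3d, Cd79a and Ms4a1 lay below the median of the arrays (sums of 168 to 189 in young and 173 to 214 in aged animals). Of 7 fibroblast markers 1 rose (Col3a1) and 1 fell (Col1a2), with sums of 7511 to 10267 and 7948 to 11039. The Col3a1 call was kept without young replicate 2 or aged replicate 2 and lost without any other single animal. Leaving out 1 animal gave 0 to 2 fibroblast markers lower. Of 7 endothelial markers 1 fell (Flt1), 3 without aged replicate 4, with sums of 909 to 1158 and 777 to 1451. Of 7 Schwann cell markers 1 rose (Cnp), and 3 without aged replicate 1, where 15.6% of all symbols rose, with sums of 675 to 1291 and 798 to 2158. Of 5 fat cell markers 1 rose (Cfd), 2 without aged replicate 2, with Lep below the median of the arrays and sums of 1629 to 2043 and 2204 to 3953. The part of these cells in the lower level of complex I transcripts was not tested.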

How the data were processed

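Total RNA of 10 rat muscles, 5 aged and 5 young, was amplified to biotin-labelled cRNA and hybridised to 1 array each, according to the protocols in the labels. The values deposited by the authors are intensities on a linear scale, and the submitters' processing notes name RMA, a method of background correction, normalization and probe summary, with no version. The text table held 43686 probe sets and 43685 of them were in the value table with the same values. Columns of the text table gave only the group, so values per animal and fits without an animal came from the value table. No scan date, batch, detection call or background measure was given, and the number of arrays limits the precision. The numbered replicates of a group are separate animals, per the labels.

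Intensities were taken to log2 with no pseudocount and no filter. Aged and young animals were compared with limma 3.58.1 (lmFit and eBayes) in R 4.3.3, and p-values were adjusted by Benjamini-Hochberg over all probe sets and called under 0.05. A gene was read from the probe set of the highest mean intensity. The members and lists were chosen with earlier results of these data known. The core subunits, the 4 assembly factors, and the 6 accessory subunits with the lowest and 3 with the highest log2 fold change are named with their values, and up to 4 called genes of each other list, except 1 core subunit and 1 listed gene, which enter the counts and are not reported here by name. On simulated data of 43686 probe sets, 99% of 100 probe sets changed 2-fold and 89% of 100 changed 1.5-fold were recovered, with 9 false calls. The simulation drew each probe set independently and with the same SD in both groups. The members had a wider spread in the aged animals (median SD 0.224 against 0.065), so these rates may not hold for them. Alternatives were quantile normalization, median centring, the mean over probe sets, a filter on dim probe sets, an intensity trend, leaving out each array (for modules and related lists chosen after seeing the data), leaving out the 2 replacement arrays, a replicate block and a 1.5-fold minimum. Promoter windows and gene names came from RefSeq (GRCr8). All 41 symbols are current there.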

Additional observations from a re-analysis of the deposited data

Results flagged for a closer look

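Among 82 groups of 5 animals (41 genes in each age group), 2 held an animal set apart from the rest by a gap that was large against the range. Chance gives about 1 in 20 groups, a larger share than the 2 of 82 found. The 2 are thus listed as single values and not read as effects. For Ndufa4, aged replicate 1 read 7569 against 6497 to 6773 in the other aged animals, a gap of 0.728 of the range. For Ndufaf4, aged replicate 4 read 217 against 366 to 447 in the other aged animals, a gap of 0.724 of the range.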

How the results depend on the processing

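The 20 genes that fell became 24 with quantile normalization, 17 with median centring, 22 without dim probe sets, 20 with an intensity trend and 20 with the mean over probe sets. Leaving out 1 array gave 14 (without young replicate 3) to 28 (without aged replicate 1) genes, 5 to 7 core subunits, and 9 (without young replicate 3) to 21 accessory subunits. Without both replacement arrays 10 genes fell (3 core, 7 accessory) and 1 rose. With a minimum of 1.5-fold 2 fell (1 core, 1 accessory). The count of genes that rose was 0 to 1 when 1 array was left out, the 1 being Ndufs4 without aged replicate 4. Of the assembly factors 1, Ndufaf3, fell with quantile normalization and 1 without dim probe sets. The log2 fold change of Ndufa7 turned to 0.093 (adjusted p = 0.525) with the mean over probe sets, since its dimmer probe set lay higher. Of 696 values of single genes under these settings, 623 kept direction and side of the threshold, 55 lost a call, 17 gained one and 1 turned. Ndufs1, Ndufs3, Ndufs7, Ndufa8, Ndufa9, Ndufb2, Ndufb5, Ndufb10 and Ndufb11 kept their call in all 17 of these settings. Other causes were not tested. With the replicate block 16 genes fell, but same-numbered animals of the groups share only a number (correlations of their deviations -0.117 to 0.027). Ndufa10l1 had no value without dim probe sets.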
